A study of Mus musculus with 12 samples.

Results

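The 10 genes described here encode nutrient carriers, efflux pumps and an iron-uptake receptor of the blood-brain barrier: Slc2a1, Slco1a4, Slco1c1, Slc7a5, Slc38a5, Abcb1a, Abcg2, Abcc4, Slc16a1 and Tfrc. They were chosen by symbol, as the rows of the count table whose Ensembl identifiers carry those names, and make up 10 of the 53379 genes in the table. These genes and the other gene lists below were chosen with earlier results of these data known. Counts set beside the share of all genes therefore describe the chosen genes and are not an independent test. All 10 were among the 19252 genes with enough reads to be tested. Total RNA was sequenced from wild type C57BL/6J mouse brain, which the study's design text calls injured cortex, in 12 libraries collected 6 months after injury or sham. Fish oil injured, fish oil sham, purified injured and purified sham animals gave 3 libraries each. The fish oil groups received a high fat diet with fish oil in cycles, and the purified groups received a purified control diet without interruption, so the diets differed in fat content and schedule as well as in fish oil. Injury was a repeated closed head impact graded as less than mild, abbreviated rlmTBI. No label ties the libraries to separate animals, so the p-values below measure the spread between these libraries. In each group, the library names of replicates 3 and 4 share their first number, and that of replicate 2 has another. What this number stands for is not given in the labels. The main fit treats the 3 libraries of a group as independent.

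Brain capillary endothelial cells are joined by tight junctions, and most water-soluble nutrients reach the brain only through carriers in their membranes. Glucose, amino acids, lactate, thyroid hormone and transferrin-bound iron are each taken up by a carrier or receptor of their own, while ATP-driven pumps return many drugs and metabolites to the blood. Several of these proteins are also made outside the endothelium, among them Slco1c1 and Abcc4 in choroid plexus epithelium, Slc16a1 in oligodendrocytes and Tfrc in neurons. In whole tissue, fewer endothelial cells and less RNA per endothelial cell cannot be told apart.

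The promoter windows of 5 members are shown because these are the genes on which the diet and injury comparisons below turn. Each runs from 250 bases before to 50 bases after the RefSeq start site of GRCm38.p6, on the strand of the gene, and 9 of the 10 members had at least 1 such window, 13 in all. Capitals mark matches on either strand to CACGTG (the E-box), GCGTG (the xenobiotic response core), ACGTG (the hypoxia response core), TGACNNNGC (the antioxidant response element) or CCGGAAG (the ETS site). The E-box contains ACGTG on both strands, so each E-box also counts as hypoxia core matches.
Slc2a1, chr4:119108495-119108794, plus strand: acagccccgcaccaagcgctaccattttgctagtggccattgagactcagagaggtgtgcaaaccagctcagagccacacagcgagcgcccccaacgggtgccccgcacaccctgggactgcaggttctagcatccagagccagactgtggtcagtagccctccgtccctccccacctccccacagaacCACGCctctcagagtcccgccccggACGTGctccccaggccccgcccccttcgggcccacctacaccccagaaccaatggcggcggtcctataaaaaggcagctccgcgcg
Slco1a4, chr6:141856171-141856470, minus strand: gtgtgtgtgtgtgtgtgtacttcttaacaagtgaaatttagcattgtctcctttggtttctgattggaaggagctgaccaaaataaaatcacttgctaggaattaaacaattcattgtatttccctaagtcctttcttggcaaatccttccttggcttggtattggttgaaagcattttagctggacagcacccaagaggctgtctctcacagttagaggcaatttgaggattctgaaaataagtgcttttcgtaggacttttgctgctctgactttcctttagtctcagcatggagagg
Slc38a5, chrX:8271131-8271430, plus strand: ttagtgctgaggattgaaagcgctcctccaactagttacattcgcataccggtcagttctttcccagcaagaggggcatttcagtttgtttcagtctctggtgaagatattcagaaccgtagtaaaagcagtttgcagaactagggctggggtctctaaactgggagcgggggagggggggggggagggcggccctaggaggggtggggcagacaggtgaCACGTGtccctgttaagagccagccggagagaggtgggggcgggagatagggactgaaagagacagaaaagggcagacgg
Abcb1a, chr5:8566841-8567140, plus strand: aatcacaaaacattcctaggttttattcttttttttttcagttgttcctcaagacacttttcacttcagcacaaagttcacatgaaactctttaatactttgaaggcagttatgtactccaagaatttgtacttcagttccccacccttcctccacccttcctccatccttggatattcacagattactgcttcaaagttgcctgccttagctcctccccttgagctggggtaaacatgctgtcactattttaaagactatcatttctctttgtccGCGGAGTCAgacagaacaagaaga
Slco1c1, chr6:141524104-141524403, plus strand: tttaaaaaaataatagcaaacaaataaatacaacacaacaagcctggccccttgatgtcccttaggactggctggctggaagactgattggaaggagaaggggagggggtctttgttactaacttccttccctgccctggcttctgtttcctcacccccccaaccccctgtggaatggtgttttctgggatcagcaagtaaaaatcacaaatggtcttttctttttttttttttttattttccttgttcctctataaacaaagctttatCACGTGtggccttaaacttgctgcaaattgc
The Slc2a1 window held 1 xenobiotic core and 1 hypoxia core, and the Slc38a5 and Slco1c1 windows held an E-box each. The Abcb1a window held 1 antioxidant element, and its RefSeq start lay 92986 bases from the start of the gene in the GENCODE annotation. None of the 5 motifs was found in the Slco1a4 window. Among the 13 member windows the E-box was in 4, the xenobiotic core in 6, the hypoxia core in 7, the antioxidant element in 4 and the ETS site in 1. These are counts of windows, not of genes. The Tfrc windows overlap and share 1 hypoxia core match, and Abcc4 and Abcg2 also have more than 1 window. Of all 32851 windows in the same table, 7.15% held the E-box, 32.4% the xenobiotic core, 19.6% the hypoxia core, 12.4% the antioxidant element and 8.86% the ETS site.

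The libraries held 46362158 to 70754854 counts, with reads in 23207 to 24579 genes. None of 20 endothelial markers was at 0 in any library, and cortical neuron markers were present in every library. Some libraries also carried RNA of other structures. The olfactory bulb score, a mean log2 CPM over 8 markers, was 6.38 in purified injured replicate 3 and at most 1.16 in the other 11 libraries. The striatal score was 6.70 in fish oil sham replicate 2 and 5.38 in purified sham replicate 4, against 1.97 to 4.23 elsewhere. Fish oil injured replicates 2, 3 and 4 had choroid plexus scores of 2.72, 5.45 and 5.48, against 0.83 to 0.98 in the fish oil sham libraries, 0.01 to 1.22 in the purified injured libraries and 3.12 or less in the purified sham libraries. Values without some of these libraries are given below for part of the member counts and differences.

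Levels are given as CPM, counts scaled to the size and composition of each library. Divided by exon length (RPKM), Tfrc had the highest mean level over the 12 libraries, 27.4 RPKM, with a range of 21.9 to 35.8. The amino acid exchanger Slc7a5 followed at 12.7 RPKM, then the glucose carrier Slc2a1 at 12.1, the thyroxine carrier Slco1c1 at 9.97 and the lactate carrier Slc16a1 at 9.58 RPKM. Lower in the order were the organic anion carrier Slco1a4 at 6.02 RPKM, and the efflux pumps Abcb1a at 4.81, Abcg2 at 2.41 and Abcc4 at 1.73 RPKM. The glutamine carrier Slc38a5 was lowest at 0.78 RPKM. The ranges over libraries of neighbours in this order overlapped, except those of Tfrc and Slc7a5.

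**Figure D1:**
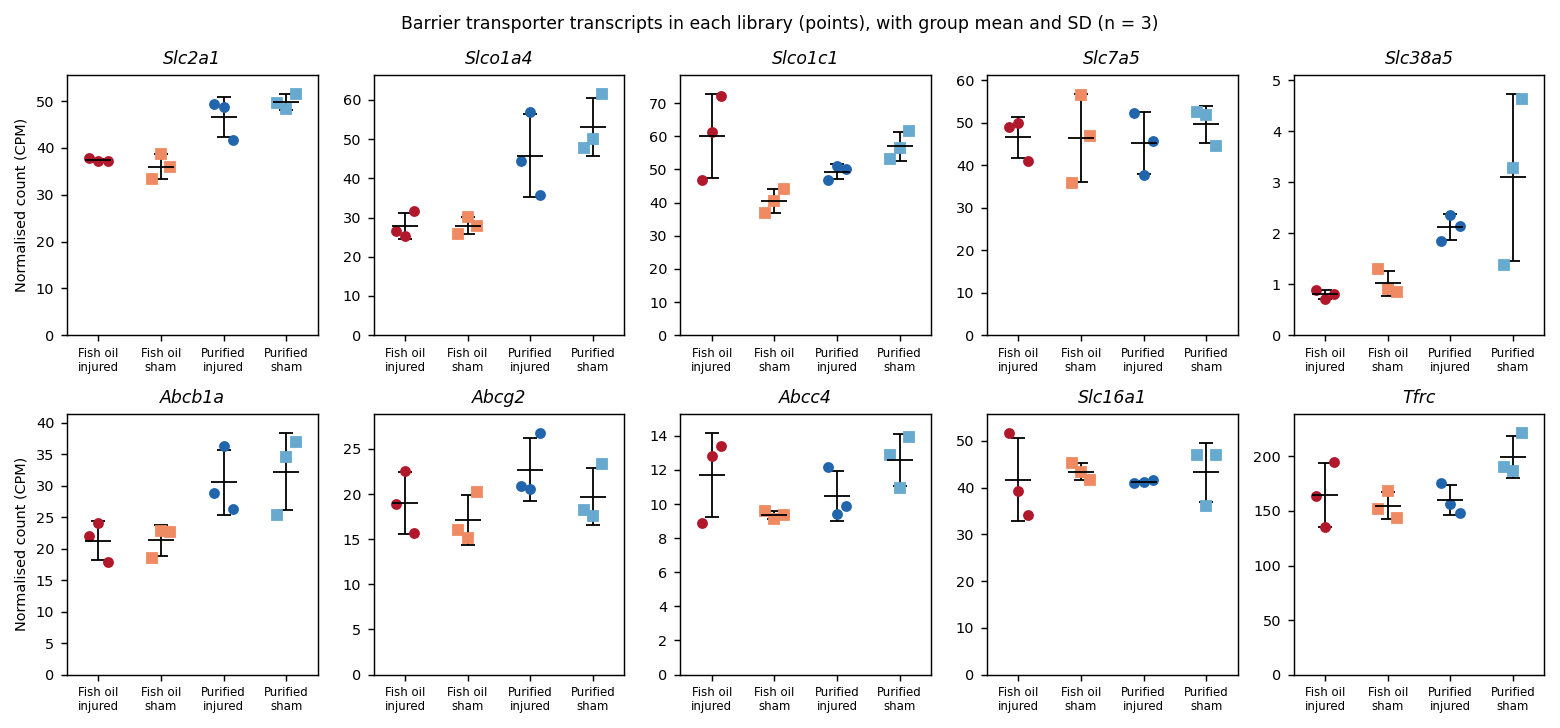
Level of each of the 10 transporter genes in CPM (vertical axes, linear from 0) in the 12 libraries, by diet and injury group; points are libraries and bars are group means ± SD (n = 3). Slco1a4, Slc2a1, Slc38a5 and Abcb1a were lower in the fish oil libraries, while Slco1c1 ranged from 46.6 to 72.0 CPM in the fish oil injured libraries, against 36.7 to 44.1 CPM in the fish oil sham libraries.

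Averaged over injury and sham, 4 members were lower in every fish oil library than in every purified-diet library: Slco1a4, Slc38a5, Abcb1a and Slc2a1. None of the 10 passed the threshold (edgeR's quasi-likelihood test, Benjamini-Hochberg adjusted p of 0.05 over 19252 genes), and 0% of all tested genes did. The same 4 had an unadjusted p below 0.05, as did 6.1% of all tested genes in that direction. Groups that did not overlap, with fish oil below, were found for 0.301% of all tested genes. In the opposite direction no member was at either mark, against 2.75% of all tested genes for the unadjusted p and 0.125% for separate groups. Leaving out 1 library at a time gave 4 to 5 members with an unadjusted p below 0.05 on the lower side. Without fish oil injured replicates 3 and 4, which leaves 1 library in that group, the number was 6, with Slco1c1 at -0.29 and Abcc4 at -0.33 in addition to the same 4. With scores for choroid plexus, for striatum and for olfactory bulb added to the model, the same 4 were lower at that mark and Slc16a1 was higher, at 0.27 (adjusted p of 1.0 by edgeR).

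Slco1a4 carries bile acids, steroid conjugates and many drugs across the capillary wall. Its level was 26.5, 25.3 and 31.6 CPM in fish oil injured libraries and 25.8, 30.1 and 27.7 CPM in fish oil sham libraries, against 44.4, 56.9 and 35.9 CPM in purified injured libraries and 47.7, 49.9 and 61.5 CPM in purified sham libraries. The highest fish oil library, at 31.6 CPM, lay below the lowest purified-diet library, at 35.9 CPM. The log2 difference averaged over injury and sham was -0.82 ± 0.12 (SE), a ratio of 0.566, with an unadjusted p of 1.76e-05 and an adjusted p of 0.169 by edgeR, rank 2 of the 19252 genes. Without purified injured replicate 4, the purified-diet library with the lowest level of Slco1a4, its adjusted p was 0.0279 by edgeR in this comparison. DESeq2 on all libraries called 4 members (Slc2a1, Slco1a4, Slc38a5 and Abcb1a), among 99 genes.

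Slc2a1 encodes GLUT1, the main glucose carrier of the barrier. It was at 37.7, 37.1 and 37.2 CPM in fish oil injured libraries and 33.3, 38.8 and 35.8 CPM in fish oil sham libraries, against 49.3, 48.7 and 41.7 CPM in purified injured libraries and 49.6, 48.3 and 51.5 CPM in purified sham libraries. All 6 fish oil libraries were below all 6 purified-diet libraries, although the gap between the closest libraries of the diets was small. The log2 difference was -0.39 ± 0.07 (SE), with an adjusted p of 0.409 by edgeR.

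Slc38a5, a sodium-coupled carrier of glutamine and other small neutral amino acids, rested on few reads, 40 to 260 per library. Its level was 0.890, 0.702 and 0.808 CPM in fish oil injured libraries and 1.29, 0.902 and 0.856 CPM in fish oil sham libraries, against 1.85, 2.36 and 2.14 CPM in purified injured libraries and 1.37, 3.28 and 4.63 CPM in purified sham libraries. The purified sham libraries were the most spread, and the lowest of them was close to the highest fish oil library. The log2 difference was -1.50 ± 0.27 (SE), a ratio of 0.353, the largest difference between diets among the members, with an adjusted p of 0.425 by edgeR.

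Abcb1a encodes a P-glycoprotein, the drug efflux pump of mouse brain endothelium. Its level was 22.0, 24.0 and 17.8 CPM in fish oil injured libraries and 18.5, 22.7 and 22.7 CPM in fish oil sham libraries, against 28.9, 36.4 and 26.4 CPM in purified injured libraries and 25.3, 34.6 and 36.9 CPM in purified sham libraries. The diets did not overlap, with 24.0 CPM the highest fish oil value and 25.3 CPM the lowest purified-diet value. The log2 difference was -0.56 ± 0.12 (SE), with an adjusted p of 0.451 by edgeR. Its paralog Abcb1b, which encodes the other mouse P-glycoprotein, was at 3.12 to 7.07 CPM, with a log2 difference of 0.07 ± 0.17.

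The remaining members overlapped between the diets. Abcg2, the breast cancer resistance protein, had a log2 difference of -0.23 ± 0.13 and ranged from 15.1 to 26.8 CPM over all libraries. For Tfrc, which takes up transferrin-bound iron, it was -0.16 ± 0.10, for the efflux pump Abcc4 -0.13 ± 0.12, and for Slco1c1 -0.11 ± 0.10. Slc7a5 and Slc16a1 were within 1 SE of 0. Over the 10 members the median log2 difference was -0.20, against 0.01 over all tested genes.

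**Figure D2:**
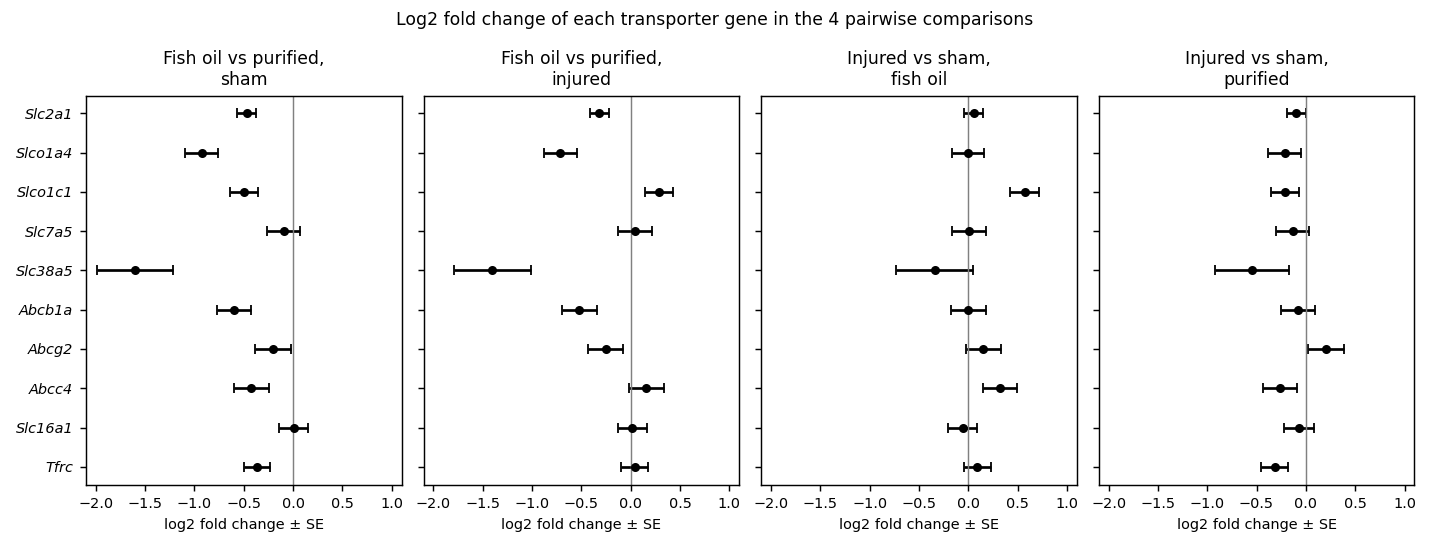
Log2 difference of each member (horizontal axes) in the 4 pairwise comparisons, fish oil against purified diet in sham and in injured animals, and injured against sham on fish oil and on the purified diet; points are edgeR estimates, bars are ± 1 SE, and the line marks 0. In the diet comparisons Slc38a5 lay farthest to the left, at -1.60 in sham and -1.40 in injured animals, and Slco1c1 had opposite signs in the injury comparisons, 0.57 on fish oil and -0.21 on the purified diet.

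In sham animals alone, 7 members were lower in all 3 fish oil libraries than in all 3 purified-diet libraries, and the same 7 had an unadjusted p below 0.05. Over all tested genes, 7.45% did not overlap in that direction, 1.95% had an unadjusted p below 0.05 in it, and 0% passed the threshold. No member was higher on fish oil by either mark, against 6.31% of all tested genes for separate groups and 1.74% for the unadjusted p. The 7 were Slco1a4 at -0.93 ± 0.17, Slc38a5 at -1.60 ± 0.39, Abcb1a at -0.60 ± 0.18, Slco1c1 at -0.50 ± 0.14, Slc2a1 at -0.47 ± 0.09, Abcc4 at -0.42 ± 0.18 and Tfrc at -0.37 ± 0.14 (log2 difference ± SE). Slco1a4 had an adjusted p of 0.686 by edgeR, rank 3 of all tested genes by unadjusted p, and Abcg2 overlapped, at -0.20 ± 0.18. The median over the members was -0.45, against 0.01 over all tested genes. With fish oil sham replicate 2 and purified injured replicate 3 left out, 5 members had an unadjusted p below 0.05. The latter library is in neither group of this comparison, and purified sham replicate 4, with a striatal score of 5.38, was kept. Purified sham replicate 4 had the highest purified sham level of each of the 7 members, and without it alone the count was 5. Leaving out 1 library at a time gave 5 to 7 members, and Slc38a5 was then at -1.96 to -1.19. DESeq2 on all libraries called 2 members, Slc2a1 and Slco1a4, of 17 genes.

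Tfrc, Abcc4 and Slco1c1 were separate between diets in sham animals and overlapped in injured animals. Tfrc was at 152, 168 and 144 CPM in fish oil sham libraries, against 190, 186 and 221 CPM in purified sham libraries. In injured animals it was at 164, 136 and 194 CPM on fish oil, against 176, 157 and 148 CPM on the purified diet. The sham groups were separate and the injured groups overlapped, with a diet by injury difference of 0.41 ± 0.19 (log2, SE; adjusted p of 0.82 by edgeR).

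In injured animals, 4 members were lower in every fish oil library, as were 5.98% of all tested genes. Those were Slco1a4 at -0.72 ± 0.17 (adjusted p of 0.362 by edgeR), Slc2a1 at -0.32 ± 0.09 (0.382), Slc38a5 at -1.40 ± 0.39 (0.369) and Abcb1a at -0.52 ± 0.18 (0.403). They also had an unadjusted p below 0.05, against 6.83% of all tested genes in that direction, and 0% of tested genes passed the threshold. No member was higher on fish oil by either mark, against 5.6% of all tested genes for separate groups and 3.89% for the unadjusted p. Abcg2 was at -0.26 ± 0.18 and Slco1c1 at 0.28 ± 0.14, both with overlapping groups, and the other 4 members were within 1 SE of 0. The member median was -0.12, against 0.01 over all tested genes. Leaving out 1 library at a time gave 3 to 4 members with an unadjusted p below 0.05 on the lower side. The count was 3 without purified injured replicate 3 and without fish oil injured replicate 4. Slco1a4 was at -0.87 to -0.54 over these fits. Without purified injured replicate 4, the purified-diet library with the lowest level of Slco1a4, its adjusted p was 0.0488 by edgeR, and 83 genes were called in all. Without fish oil injured replicates 3 and 4, which leaves 1 library in that group, 1 member, Slco1a4, had an unadjusted p below 0.05, at -0.80. With the 3 scores for other structures in the model 0 members were lower at that mark, with Slco1a4 at -0.48, Slc2a1 at -0.16, Slc38a5 at -1.42 and Abcb1a at -0.35, and 1 was higher, Slc16a1 at 0.61 (unadjusted p of 0.0104, adjusted p of 1.0 by edgeR). The choroid plexus score was 2.72 to 5.48 in fish oil injured libraries, against 0.01 to 1.22 in purified injured libraries. The parts of this score and of the diet in injured animals therefore cannot be told apart. Slco1c1 was higher at an unadjusted p below 0.05, at 0.44, without fish oil injured replicate 2. DESeq2 called Slco1a4 alone among the members, of 186 genes.

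Endothelial markers were lower in the same libraries. The sum of 20 markers was 182 to 215 CPM in fish oil injured libraries and 189 to 233 CPM in fish oil sham libraries, against 250 to 285 CPM in purified injured libraries and 300 to 424 CPM in purified sham libraries. All 20 markers had negative log2 differences on fish oil in each diet comparison. The median was -0.77 in sham animals, -0.43 in injured animals and -0.61 averaged over injury and sham. In the averaged comparison 18 of the 20 had an unadjusted p below 0.05, against 6.1% of all tested genes in that direction, and 0 passed the threshold. The number was 15 in sham animals, against 1.95% of all tested genes, and 7 in injured animals, against 6.83%. Pericyte markers, 10 in the list, summed to 156 to 181 CPM in fish oil injured and 167 to 210 CPM in fish oil sham libraries, against 193 to 221 CPM in purified injured and 216 to 262 CPM in purified sham libraries.

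With the mean log2 CPM of the endothelial markers as a term in the model, 0 members had an unadjusted p below 0.05 in any of the 3 diet comparisons. The averaged diet difference was then -0.35 for Slco1a4, -0.23 for Slc2a1, -0.70 for Slc38a5 and -0.24 for Abcb1a. In the other direction, Abcg2 was at -0.44 with the term, against -0.23 without it. In sham animals the adjusted estimates were -0.32 for Slco1a4 and -0.51 for Slc38a5. Because the endothelial score and the diet moved together in these libraries, their parts in the differences cannot be told apart.

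The level of each member relative to the endothelial markers was taken as its log2 CPM minus the endothelial score. For Slco1a4 this was 1.98 ± 0.13 in fish oil injured and 1.91 ± 0.08 in fish oil sham libraries, against 2.27 ± 0.22 in purified injured and 2.09 ± 0.13 in purified sham libraries (SD, n = 3 each). For Slc2a1 it was 2.41 ± 0.18 in fish oil injured and 2.27 ± 0.08 in fish oil sham libraries, against 2.32 ± 0.02 in purified injured and 2.01 ± 0.24 in purified sham libraries. The diets overlapped on this scale for both genes. Slc38a5 had the widest gap, with a log2 difference of -0.83 averaged over injury and sham and overlapping libraries. Tfrc alone was separate on this scale, with every fish oil library above every purified-diet library and a difference of 0.40. Larger differences, with overlapping libraries, were 0.58 for Slc16a1, 0.54 for Slc7a5, 0.45 for Slco1c1 and 0.44 for Abcc4. Only Slco1a4, at -0.24, and Slc38a5 were below 0. The mean endothelial score was itself lower on fish oil, so a gene with an unchanged level rises on this scale.

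**Figure D3:**
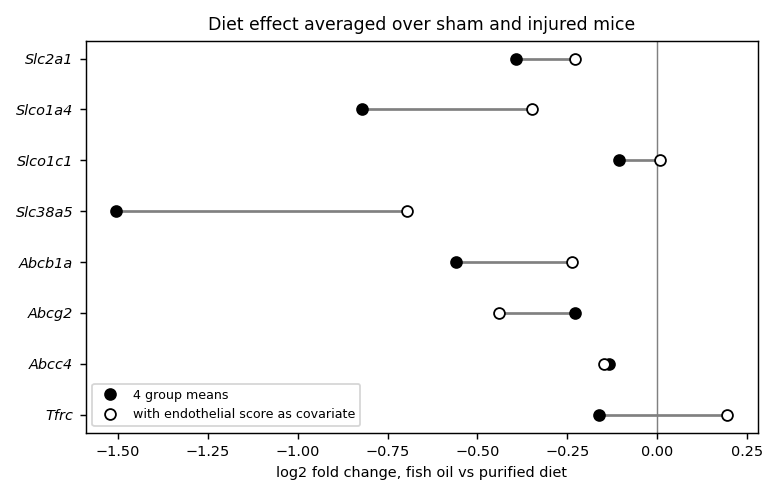
Log2 difference between diets, averaged over injury and sham (horizontal axis), for 8 members in the fit without (filled circles) and with (open circles) an endothelial marker score as a term. Slc7a5 and Slc16a1, both within 1 SE of 0, are not drawn. With the term Slco1a4 was at -0.35, against -0.82 without it, and Tfrc was at 0.19, against -0.16 without it.

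In fish oil animals, the comparison of injury with sham had 1 member whose groups did not overlap. This was Slco1c1, the carrier that brings thyroxine into the brain. Its level was 46.6, 61.4 and 72.0 CPM in fish oil injured libraries, against 36.7, 40.4 and 44.1 CPM in fish oil sham libraries. All injured libraries were above all sham libraries, and replicates 3 and 4 were farthest above. The log2 difference was 0.57 ± 0.14 (SE; unadjusted p of 0.00187, adjusted p of 0.944 by edgeR). Among all tested genes 4.97% did not overlap in that direction, 1.58% had an unadjusted p below 0.05 in it, and 0% passed the threshold. No member was lower after injury by either mark, against 5.23% of all tested genes for separate groups and 1.9% for the unadjusted p. Without fish oil injured replicate 2, the library with the least choroid plexus signal in its group, 2 members were higher at an unadjusted p below 0.05. Abcc4, which exports conjugated steroids and nucleotide analogues, was at 8.87, 12.8 and 13.4 CPM in fish oil injured libraries, against 9.60, 9.14 and 9.36 CPM in fish oil sham libraries. Its groups overlapped because replicate 2 was lowest, and its log2 difference was 0.32 ± 0.18. The other 8 members were within 1 SE of 0.

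The choroid plexus signal followed the same libraries. The 15 choroid plexus markers summed to 684, 4374 and 4307 CPM in fish oil injured replicates 2, 3 and 4, against 257 to 418 CPM in the fish oil sham libraries, and replicates 3 and 4 were also the highest of the 6 fish oil libraries for Slco1c1 and Abcc4. Purified sham replicate 4, with a choroid plexus score of 0.49, had 61.6 CPM of Slco1c1 and 13.9 CPM of Abcc4. Without those 2 libraries, the injury difference on fish oil was 0.19 for Slco1c1 and -0.09 for Abcc4, and 0 members had an unadjusted p below 0.05. With scores for choroid plexus, for striatum and for olfactory bulb added to the model, it was 0.20 for Slco1c1, 0.18 for Abcc4 and 0.49 for Slc16a1, the 1 member then at an unadjusted p below 0.05. Every fish oil injured library had a higher choroid plexus score than every fish oil sham library. The parts of this score and of injury on fish oil therefore cannot be told apart. Slco1a5, a close paralog of Slco1a4, was at 1.28 and 0.962 CPM in the 2 libraries of fish oil injured replicates 3 and 4 and at most 0.367 CPM in the other 10.

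**Figure D4:**
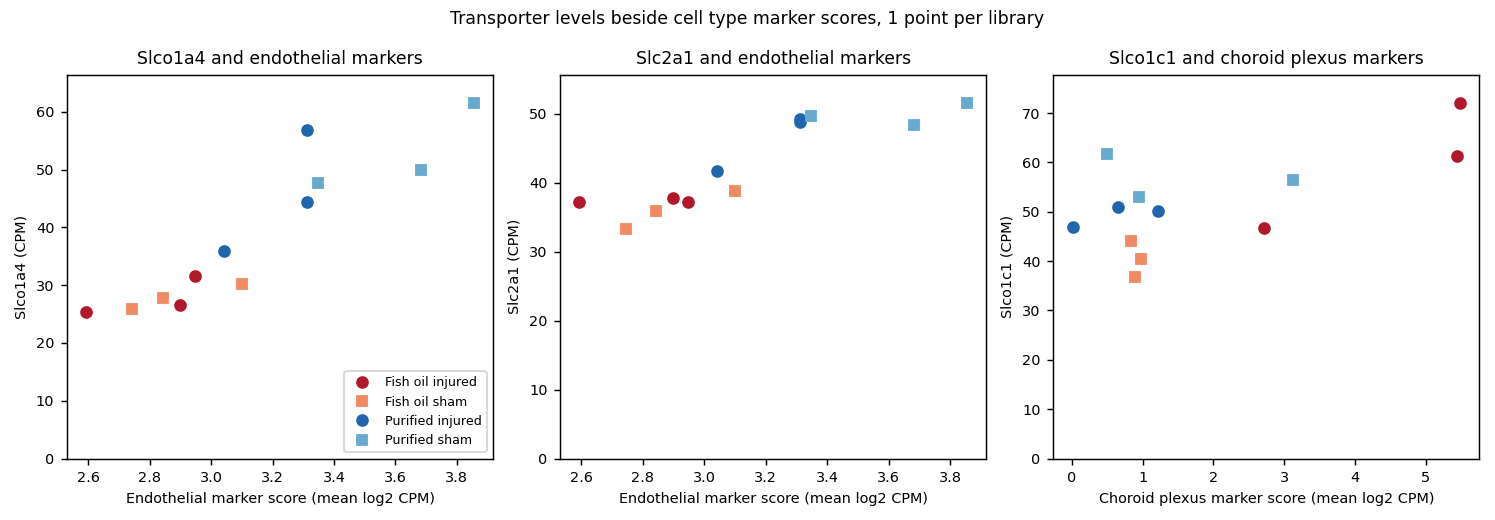
Level of Slco1a4 and Slc2a1 against the endothelial marker score, and of Slco1c1 against the choroid plexus marker score; levels are in CPM (vertical axes, linear from 0), scores in mean log2 CPM (horizontal axes), and each point is 1 of the 12 libraries, by diet and injury group. Fish oil injured replicates 3 and 4, at choroid plexus scores of 5.45 and 5.48, had 61.4 and 72.0 CPM of Slco1c1.

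On the purified diet, injured libraries were below sham libraries for 2 members, Slco1c1 and Tfrc, without overlap, as for 6.68% of all tested genes. Slco1c1 was at 46.9, 50.9 and 50.2 CPM in purified injured libraries, against 53.0, 56.4 and 61.6 CPM in purified sham libraries, a log2 difference of -0.21 ± 0.14 (SE). Tfrc was at 176, 157 and 148 CPM in purified injured libraries, against 190, 186 and 221 CPM in purified sham libraries. Its log2 difference was -0.32 ± 0.14, with an unadjusted p of 0.0388 and an adjusted p of 0.763 by edgeR. It was the 1 member with an unadjusted p below 0.05, against 2.57% of all tested genes in that direction, and 0% passed the threshold. Without fish oil sham replicate 2, purified injured replicate 4 or purified sham replicate 4, left out 1 at a time, 0 members were at that mark. No member was higher by either mark, against 4.92% of all tested genes for separate groups and 3.93% for the unadjusted p. The remaining estimates beyond 1 SE were -0.55 ± 0.38 for Slc38a5, -0.26 ± 0.18 for Abcc4, -0.21 ± 0.17 for Slco1a4, -0.10 ± 0.09 for Slc2a1 and 0.20 ± 0.18 for Abcg2. Leaving out 1 library at a time, Slc38a5 was at -0.90 to -0.13. Endothelial markers also had lower values in purified injured libraries, with 19 of 20 below 0 and a median of -0.39. With the endothelial score as a term, Tfrc was at -0.06.

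Averaged over the diets, injured and sham libraries overlapped for all 10 members, and 0 had an unadjusted p below 0.05. Over all tested genes 0% passed the threshold, 0.0467% did not overlap with injured below and 0.0623% with injured above, and the unadjusted p was below 0.05 for 1.72% with injured lower and 1.89% with injured higher. Without purified sham replicate 2, 1 member was lower at that mark, and without fish oil injured replicate 2, 1 was higher. The estimates beyond 1 SE were 0.18 ± 0.10 for Slco1c1, -0.44 ± 0.27 for Slc38a5, 0.18 ± 0.13 for Abcg2 and -0.11 ± 0.10 for Tfrc. Without fish oil injured replicates 3 and 4, Slco1c1 was at -0.0048.

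The diet by injury term tests whether the injury difference on fish oil differed from that on the purified diet. Slco1c1 had the largest estimate among the members, 0.78 ± 0.20 (log2, SE; unadjusted p of 0.00234, adjusted p of 0.82 by edgeR), followed by Abcc4 at 0.58 ± 0.25 (unadjusted p of 0.037, adjusted p of 0.82 by edgeR). These 2 members had an unadjusted p below 0.05, against 2.85% of all tested genes in that direction, and 0% passed the threshold. In the negative direction 0 members were at that mark, against 2.9% of all tested genes. The count of 2 was 3 without purified injured replicate 2, and 1 without fish oil injured replicate 4, any of the 3 fish oil sham libraries, purified injured replicate 3 or 4, or purified sham replicate 2 or 4, each left out alone. Slc2a1 was at 0.15 ± 0.13. Without fish oil injured replicates 3 and 4, Slco1c1 was at 0.39 and Abcc4 at 0.16, and neither had an unadjusted p below 0.05. The count was 1 without fish oil sham replicate 2 and purified injured replicate 3. With the 3 scores in the model it was also 1, Slc16a1 at 0.70, and Slco1c1 was at 0.33. Here too the parts of the choroid plexus score and of the groups cannot be told apart.

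Slc7a5 and Slc16a1 were within 1 SE of 0 in all 7 comparisons of the fit without marker scores. Slc7a5 encodes LAT1, which exchanges large neutral amino acids and carries the drug levodopa. It was at 49.0, 49.9 and 41.1 CPM in fish oil injured libraries and 35.8, 56.6 and 46.9 CPM in fish oil sham libraries, against 52.4, 37.7 and 45.8 CPM in purified injured libraries and 52.5, 51.8 and 44.6 CPM in purified sham libraries. Slc16a1 encodes MCT1, a proton-coupled carrier of lactate and ketone bodies, and ranged from 34.2 to 51.6 CPM, both extremes in fish oil injured libraries. Its highest level was in replicate 2, which had the lowest choroid plexus score of that group. That library also had the highest oligodendrocyte score of the group, 7.85, against 6.27 and 7.30 in replicates 3 and 4. What part either score had in the Slc16a1 estimates was not tested. The groups of both genes overlapped in every comparison. Slc3a2, the heavy chain that pairs with LAT1, ranged from 66.7 to 92.7 CPM.

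A list of 25 other barrier transporters, chosen by name, had 24 tested genes and 0 past the threshold in each comparison. In sham animals the list's median log2 difference was 0.00. There 2 genes were at an unadjusted p below 0.05, both lower on fish oil, against 1.95% of all tested genes in that direction. They were Slc16a4, an orphan member of the monocarboxylate carrier family, at -1.33 ± 0.35, and the iron exporter Slc40a1 at -0.43 ± 0.16. In injured animals 6 were at that level, all lower on fish oil, against 6.83% of all tested genes in that direction. Among them were the taurine carrier Slc6a6 at -0.49 ± 0.12 and the nucleotide pump Abcc5 at -0.45 ± 0.13, and the list's median was -0.23. Slc6a6 was at -0.54 and Abcc5 at -0.30 without fish oil injured replicates 3 and 4. Averaged over injury and sham 4 were at that level, all lower, against 6.1% of all tested genes in that direction. The list's median was -0.12. Slc40a1 was the 1 gene of the list without overlap between diets, at 7.35 to 9.34 CPM in fish oil libraries, against 9.58 to 13.5 CPM in purified-diet libraries. Among all tested genes 0.301% did not overlap in that direction.

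By Pearson correlation of log2 CPM over the 12 libraries, which share group and tissue composition, the genes closest to Slco1a4 were Adgrf5 (r = 0.950), Adgrl4 (0.934) and Ptprb (0.933), all of them on the endothelial marker list. Those closest to Slc2a1 were Adgrf5 (0.926), Brpf1 (0.922) and Flt1 (0.908), and those closest to Slc38a5 were Tek (0.911), Mmrn2 (0.905) and Ptprb (0.904). Abcb1a was closest to Ets1 (0.904), Map3k8 (0.886) and Zfp366 (0.863). Slco1c1 was closest to Flvcr2 (0.915), St6galnac2 (0.914) and Mertk (0.855), and Abcc4 to Mertk (0.791). The other members had Fezf2 (0.930) closest to Slc7a5, Sox8 (0.923) to Slc16a1, Coch (0.909) to Tfrc and Colgalt2 (0.860) to Abcg2.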

How the data were processed

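Total RNA was sequenced as stranded paired reads, per the labels' protocols. The tools and build named in the submitters' processing notes are STAR (2.5.2a), featureCounts (1.4.3-p1) and mm10. How multi-mapping reads and strand were handled, and with which annotation, is not given in the sources used; reads of close paralogs and of overlapping or antisense genes may be shared. The deposited values are raw counts per gene, with 20514 values of 2 against 11222 values of 1, so both mates of a pair may have been counted. Symbols and exon lengths came from GENCODE M21, in which 53274 of 53379 identifiers matched without version and 50604 with version (Tfrc only without). Promoters came from RefSeq GRCm38.p6.

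Genes were kept by edgeR 4.0.16's filterByExpr (minimum count of 10), scaled by TMM and fitted with 4 group means over all 12 libraries by the two-sided quasi-likelihood test in R 4.3.3, with Benjamini-Hochberg adjustment over 19252 genes, a threshold of 0.05 and 8 residual degrees of freedom. The biological coefficient of variation was 0.289. SEs were derived from the F statistic. No 2 libraries of a group agreed within counting noise. The alternatives were RLE scaling, DESeq2 1.42.0, limma 3.58.1 voom with and without correlated libraries, other filters, a replicate block, marker score covariates, compared groups only, halved counts and left-out libraries. The correlated libraries were those whose names share a first number. The fit was tested on simulated data. Member fold changes of the main fit are given where they exceed 1 SE, and those of other genes and other fits without that limit. Every member is named, with up to 3 genes of smallest p per other list and comparison, member paralogs and the 3 most similar genes per member. Members and lists were chosen with earlier results of these data known.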

Additional observations from a re-analysis of the deposited data

Results flagged for a closer look

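Slco1c1 was flagged because its injured and sham libraries did not overlap on either of the 2 diets and differed in opposite directions. Among all tested genes, 4.97% did not overlap with injured above on fish oil, and 6.68% with injured below on the purified diet. The share of genes with both was not counted. Fish oil injured libraries, at 46.6 to 72.0 CPM, were all above fish oil sham libraries, at 36.7 to 44.1 CPM, while purified injured libraries, at 46.9 to 50.9 CPM, were all below purified sham libraries, at 53.0 to 61.6 CPM. The diet by injury difference was 0.78 on the log2 scale, with an unadjusted p of 0.00234 and an adjusted p of 0.82 by edgeR, so it did not pass the threshold. Choroid plexus markers were highest in the 2 fish oil injured libraries with the most Slco1c1, and without those libraries the difference was 0.39.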

How the results depend on the processing

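The 39 member fold changes beyond 1 SE were recomputed under 25 settings, 12 of which left out 1 library, giving 959 values. Of these, 937 kept direction and side of the threshold, 11 passed it and 11 changed sign. The sign changes with the endothelial term were Slc2a1 (0.017), Slco1a4 (0.11) and Slc38a5 (0.097) for injury on the purified diet, Tfrc for fish oil in sham (0.098), injury averaged (0.039) and fish oil averaged (0.19), and Slco1c1 for fish oil averaged (0.0070). With the choroid plexus, striatal and olfactory bulb terms, Slco1c1 for fish oil in injured was at -0.13. Without fish oil injured replicates 3 and 4, a setting chosen after seeing the data, Abcc4 for injury on fish oil was at -0.094, and Slco1c1 was at -0.094 for fish oil in injured and -0.0048 for injury averaged. The cause was not tested. Members called numbered 1 (Slco1a4) for fish oil averaged without the count filter and with correlated voom. DESeq2 called 2, 1 and 4 members for fish oil in sham, in injured and averaged. Leaving out 1 library gave 0 to 1 for fish oil in injured and averaged, and 0 in the other comparisons. Over all genes, DESeq2 called 14 (injury, purified), 37 (injury, fish oil), 17 (fish oil, sham), 186 (fish oil, injured), 3 (injury averaged), 99 (fish oil averaged) and 21 (diet by injury). Without the filter 1 gene was called for injury averaged and 2 for fish oil averaged. Voom called 1 for injury on fish oil and 2 for injury averaged, as did correlated voom, with 2 for fish oil averaged. Without fish oil sham replicate 2 and purified injured replicate 3, 1 gene was called for fish oil in injured. Leaving out 1 library gave 0 to 7 for injury on fish oil, 0 to 83 for fish oil in injured, 0 to 6 for fish oil averaged, and 0 elsewhere. Deviations from the group means gave no sign that the replicate numbers pair the libraries. Of 18 same-number pairs 3 correlated above 0.1, with a range of -0.371 to 0.278, against 8 of 36 other pairs. Of 12 libraries 3 correlated best with their own number. With 3 libraries per group, and RNA of other structures in some, this check cannot exclude pairing. With the replicate block 0 genes were called, and Slco1c1 was at 0.56 for injury on fish oil and 0.27 for fish oil in injured (unadjusted p of 0.04). Slc38a5, with as few as 40 counts, was the member most limited by depth.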

Other observations

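Receptors of the barrier and the carrier Flvcr2, a list of 10 genes chosen by name, were all tested, and 0 passed the threshold by edgeR in any comparison. Lrp8, a receptor for apolipoprotein E and reelin, was at 114, 148 and 99.5 CPM in purified injured libraries, against 97.6, 94.9 and 82.5 CPM in purified sham libraries. The groups did not overlap, as for 4.92% of all tested genes in that direction, and the log2 difference was 0.39 ± 0.16 (SE; adjusted p of 0.763 by edgeR). Its highest value came from purified injured replicate 3, the library with the olfactory bulb signal, and without that library the log2 difference of Lrp8 was 0.23 (unadjusted p of 0.149, adjusted p of 0.861 by edgeR). Igf1r, the receptor for insulin-like growth factor, was at 93.5, 94.3 and 95.3 CPM in fish oil injured libraries, against 60.3, 83.4 and 78.8 CPM in fish oil sham libraries. Those groups were also separate, as for 4.97% of all tested genes in that direction. The lowest value was in fish oil sham replicate 2, 1 of 2 libraries with a striatal signal. The log2 difference of Igf1r was 0.35 ± 0.15 (adjusted p of 0.999 by edgeR). Without fish oil sham replicate 2 it was 0.21 (unadjusted p of 0.17, adjusted p of 1 by edgeR).

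Flvcr2, a carrier of brain endothelium, was the gene closest to Slco1c1 over the 12 libraries. It was at 1.13, 1.69 and 2.39 CPM in fish oil injured libraries, against 0.742, 1.30 and 1.18 CPM in fish oil sham libraries, with overlapping groups. Its diet by injury difference was 0.98 ± 0.46 on the log2 scale (adjusted p of 0.82 by edgeR), and 0.34 without fish oil injured replicates 3 and 4.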
